A study of Mus musculus with 6 samples.

Results

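Chromatin association was compared in primary mouse cardiac fibroblasts between 2 CUT&Tag libraries of the S set, one labelled TGF-b and one labelled TGF-b with an siRNA. In CUT&Tag an antibody guides a transposase that cuts and tags nearby DNA, so read density measures how often the protein was found at a place. The study profiled SRF and TAZ with 6 libraries, 3 of them in the S set, and S is read here as SRF, although no label names the antibody. Each side of the comparison was 1 library, so no treatment effect could be tested and every difference below is between these 2 libraries. The label of the siRNA library names SRF as the siRNA's target, while Piezo2 is the siRNA target in the text of the study. The labels do not say whether the TGF-b library received a control siRNA, while the study's account of this experiment describes a scrambled one as the control. A design text for the series describes Cre virus against Tet3 before TGF-b, which neither the sample labels nor the study's account of this experiment mentions. Strain, sex and age of the mice are not given in the labels, and the cells are labelled only as primary cardiac fibroblasts of the heart.

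The comparison held 52568 regions outside the mitochondrial chromosome (MT), of which 19208 had a normalized read density of at least 7.5 in the library where it was larger. These are called kept regions. Normalized read density is the authors' signal per kb, in which 1 read adds 0.5 before their rescaling. The median kept region had 17 reads with TGF-b and 14 with siRNA. A region or gene is called lower or higher with siRNA when its density differed by at least 2-fold, and the interval given beside a log2 ratio is a 95% Wilson interval that covers counting error only, not biological or library variation. A gene assigned by the authors to a region was represented by its kept region with the highest mean density, which gave 8203 genes.

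SRF is a transcription factor that binds the CArG box, a short A/T-rich element, and works with cofactors of the MRTF and TCF families. With MRTF partners, which respond to actin dynamics, it drives cytoskeletal and contractile genes, and with TCF partners it drives immediate early genes. In fibroblasts stimulated by TGF-b, these programmes accompany the change into contractile, matrix-producing myofibroblasts.

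CArG boxes in the promoters of kept genes show which members carry the element that SRF reads. RefSeq promoters (GRCm38.p6, 250 bases before to 50 after a start) were matched by symbol to 3653 of 4815 genes with a kept region within 1 kb of a transcription start site (TSS). A CArG box on either strand was present in 50 of the matched genes, of which 7 were lower and 7 were higher with siRNA (13.8% and 12.3% of all kept genes measured within 3 kb of a TSS), and in 1.57% of all 27025 promoters in the table. Since only 75.9% of these genes had a promoter in the table, under the 80% needed, a comparison of GC content or motif shares between lower and higher genes was void. Boxes found in the gene lists described below, other than the numbered zinc finger genes, are shown with 10 bases on either side, read on the gene's strand, with the box in capitals.
Vcl: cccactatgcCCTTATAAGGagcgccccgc
Fhl2: catttagagaCCAAAAAAGGcttgcaggag
Trpc6: cctttcgatcCCTTTAAAGGtggggatcgt
Robo1: tcgagcgtccCCTTTAAAGGttcccgagcc
Eif2s1: ttcacaccgcCCATATTAGGaggaccaaga
Lamtor4: tcattcatagCCATATTTGGgccgatccac
Rsu1: aaacagttctCCTAATTTGGgaagtgtcag
On GRCm38.p6, the window of Vcl is chr14:20929161-20929190 on the plus strand and begins its box 227 bases before the RefSeq start. The windows of Fhl2 (chr1:43196838-43196867, minus strand) and Trpc6 (chr9:8544010-8544039, plus strand) begin their boxes 96 and 122 bases before it. The others are Robo1 at chr16:72663079-72663108 (plus), Eif2s1 at chr12:78861956-78861985 (plus), Lamtor4 at chr5:138255300-138255329 (plus) and Rsu1 at chr2:13271368-13271397 (minus). Of these 7 genes, the promoter region of Robo1, which encodes an axon guidance receptor, was lower at a log2 ratio of -2.29 (interval -4.75 to -0.81, 15 reads against 2), and that of Lamtor4, a Ragulator subunit on lysosomes, was higher at 1.01 (interval 0.09 to 2.05). The other 5 lay within 2-fold, from -0.61 at Fhl2 to 0.50 at Rsu1. A box is a match of letters only, and its presence is no evidence of binding.

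More kept regions were lower than higher with siRNA. Of the 19208, 5848 were lower (30.4%) and 2444 were higher (12.7%), with a median log2 ratio of -0.39 (95% rank interval -0.42 to -0.36). Rank intervals of medians are over regions of these libraries, not over replicates. The counting interval lay wholly below 0 in 5992 regions and wholly above 0 in 2289. At the gene level 1640 of 8203 were lower (20%) and 1072 were higher (13.1%), with a median of -0.09. The split depends on the scaling. Of all regions past 2-fold, 70.5% were lower as deposited and 49.6% after centring on the median of kept regions, and for genes these shares were 60.5% and 35.0%. Densities just inside the minimum, from 7.57 to 7.93, had a median log2 ratio of -0.33 over 2773 regions, and those just outside it, from 7.09 to 7.41, had -0.24 over 3222. Over 20 chromosomes, the autosomes and X, the share of lower regions ran from 24.6% on chromosome 19 to 35.2% on chromosome 17, and every median was below 0, between -0.54 and -0.28.

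Core promoters were lower with siRNA less often than introns or regions with no gene. After centring on the median of kept regions, 4.40% of core promoters were lower and 26.0% higher, against 27.2% and 18.7% of regions with no gene, and the values as deposited follow. Within 1 kb of a TSS, 8.25% of 3431 regions were lower and 12.9% were higher, with a median log2 ratio of 0.14 (0.12 to 0.17). Regions annotated as 5' UTR were close to this, with 11.3% of 851 lower and a median of 0.03. In introns 34.8% of 5857 regions were lower and the median was -0.58 (-0.59 to -0.52). Among the 7497 regions with no gene assigned, 38.9% were lower, 12.02% were higher and the median was -0.69 (-0.73 to -0.66). Exons, 3' UTRs, downstream regions and promoters at 1-2 kb lay between 32.0% and 34.6% lower. The difference in medians between core promoters and regions with no gene, 0.83 on the log2 scale, is not moved by centring.

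**Figure D1:**
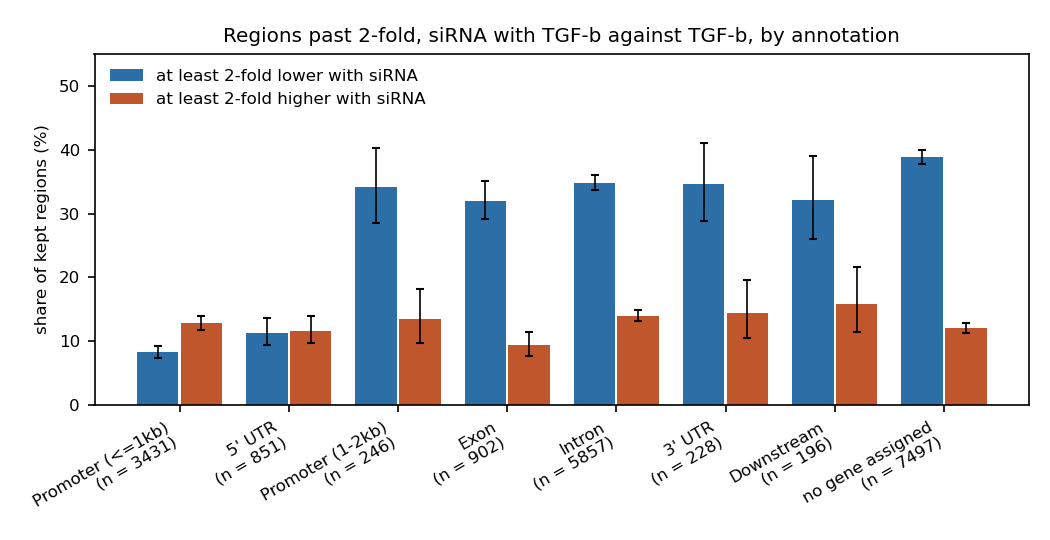
Share of kept regions at least 2-fold lower (blue) or higher (orange) with siRNA, in percent, for each annotation class, with the number of regions under each class and Wilson 95% intervals as error bars, which take regions of 1 library pair as independent and do not cover differences between libraries. Core promoters and 5' UTRs have 8.25% and 11.3% lower, and every other class has 32.0% or more.

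The change followed distance from a TSS. The median log2 ratio was 0.12 within 250 bp over 4132 regions, -0.18 between there and 1 kb, -0.45 between 1 and 3 kb and -0.73 in the farthest bin, beyond 50 kb. It was also present where the larger of the 2 densities was alike. In regions whose larger density was 10 to 15, the median was 0.10 within 250 bp and -0.85 beyond 50 kb, and at 15 to 25 it was 0.14 and -1.11. What the authors' caller marked as a peak moved with this gradient. The caller had marked 8830 kept regions in the TGF-b library only, 8490 in the siRNA library only and 1888 in both. A region called in 1 library alone was chosen for its signal there, so the medians of these classes, -1.27, 0.47 and 0.01, follow in part from the calls. Of core promoters 21.0% were called in TGF-b only and 49.1% in siRNA only, whereas of regions with no gene 54.2% were called in TGF-b only and 41.1% in siRNA only. Within regions called in TGF-b only, the median still differed by distance, from -0.67 within 250 bp to -1.31 beyond 50 kb, while in those called in siRNA only it was 0.50 in both. Width moved too. Regions called in TGF-b only had a median width of 186 bp and those called in siRNA only of 104 bp, and the part that peak calling or fragment length played in the result was not tested.

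**Figure D2:**
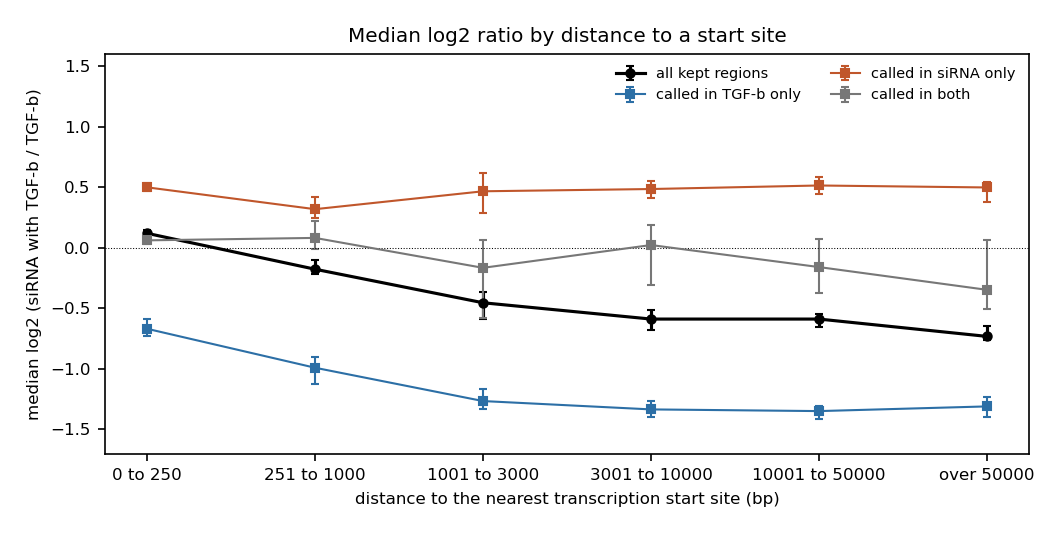
Median log2 ratio of kept regions, siRNA over TGF-b density, by distance to the nearest TSS in bp, for all kept regions (black) and by the library in which the region was called, with 95% rank intervals. The black line goes from 0.12 within 250 bp to -0.73 beyond 50 kb, and the blue line of regions called in TGF-b only goes from -0.67 to -1.31.

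Among 1500 pairs of adjacent kept regions with centres 2 to 10 kb apart, 319 had both members past 2-fold, and 228 of these (71.5%) moved the same way, 202 of them down. Since 70.5% of all regions past 2-fold were lower, unlinked pairs would also often move the same way. Their expected share was not computed, so nothing is read from the 71.5% on whether neighbours moved together. Of 307 genes with 4 or more kept regions, 96 had both a lower and a higher region, 165 had lower regions and no higher one, and 19 the reverse. In 5 genes every kept region was lower, and in no gene was every kept region higher. In all of the 5 but Kcnma1, some of the regions lie so close that their 2 kb windows share reads. These were Cadps2, which encodes a protein of dense-core vesicle release, Kcnma1, the pore of the BK potassium channel, Slc6a4, the serotonin transporter, Sfi1, which encodes a centrosomal protein, and the predicted gene Gm26795. Among these 5 genes the deepest losses were in regions assigned to Slc6a4. Its 4 regions held 18, 20, 17 and 18 reads with TGF-b and 0, 0, 6 and 7 with siRNA. The first pair lies 12443 and 12000 bp before a TSS of Slc6a4. The authors annotated this pair to an intron (11 of 11) and a 3' UTR, so it may lie in another gene. Near a TSS the log2 ratios were -1.27 (389 bp before it) and -1.16 (20 bp before it, chr11:76908888-76909078).

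Near a TSS, signal fell to between 0 and 4 reads at the 12 genes with the largest falls. The largest falls, ranked by the interval bound nearest 0, were in D030025P21Rik and Macf1, both at 20 reads with TGF-b and 0 with siRNA. Macf1 encodes a crosslinker of microtubules and actin, and its region lies 79 bp before a TSS at chr4:123459154-123459435. Against the floor of 3 reads in the siRNA library, it was at least 4.73-fold lower. Coq7, an enzyme of ubiquinone synthesis, and Tsc2, a brake on mTORC1, each went from 19 reads to 0. Dao, which encodes D-amino acid oxidase, went from 28 reads to 1 (log2 ratio -3.74, interval -7.22 to -2.15). Hpd, an enzyme of tyrosine breakdown, went from 27 to 2 (-3.11, interval -5.57 to -1.72), and Slc47a1, an organic cation exporter, from 38 to 4 (-2.88, interval -4.59 to -1.74). The olfactory receptor gene Or5an6, the protease gene Tmprss12 and the predicted genes Gm49714, Gm17359 and Gm15326 completed the 12, at 15 to 23 reads with TGF-b and 0 or 1 with siRNA. None of these 12 regions had been called in the siRNA library.

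The largest rises near a TSS were at Itpr1, Tnnt2, Ilvbl and Arglu1. Itpr1, the IP3 receptor that releases calcium from the endoplasmic reticulum, had 0 reads with TGF-b and 15 with siRNA 1026 bp before a TSS (chr6:108391167-108391244), at least 4.47-fold higher against the floor. Tnnt2, cardiac troponin T, had 1 read against 18 at 1900 bp before a TSS (log2 ratio 3.38, interval 1.75 to 6.86). Arglu1, a splicing regulator, and Ilvbl also had 1 against 18, and Arglu1 was measured 7 bp from its TSS. Ddx47, an RNA helicase of ribosome biogenesis, had 3 against 25 (2.80, interval 1.52 to 4.80) and Lyar, a nucleolar protein, 1 against 17. Rgs20, Aldh1a7, Gm56529, Apbb3, Ccdc124 and Gm6345 completed the 12, at 1 or 2 reads with TGF-b and 15 to 21 with siRNA. All 12 had been called in the siRNA library alone.

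Beyond 3 kb of any TSS the 6 largest falls all ended at 0 reads with siRNA, and the 6 largest rises all began at 0 with TGF-b. Eya2, a transcriptional coactivator with phosphatase activity, had 30 reads with TGF-b and 0 with siRNA in intron 1 of 15 (chr2:165479861-165480037), at least 7.04-fold lower against the floor. Zfp160 had 28 and 0, and Snx9, Katnal1 and Gm7480 each had 22 and 0. Arid5b had 21 and 0. Among the rises, Ldhal6b had 0 reads with TGF-b and 22 with siRNA, at least 6.37-fold higher against the floor. Gm16337, Micu3, Fhip1a, Sema3d and Nckap5 followed, from 0 to between 14 and 17 reads. These regions are intronic, and the gene is the authors' assignment by position.

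**Figure D3:**
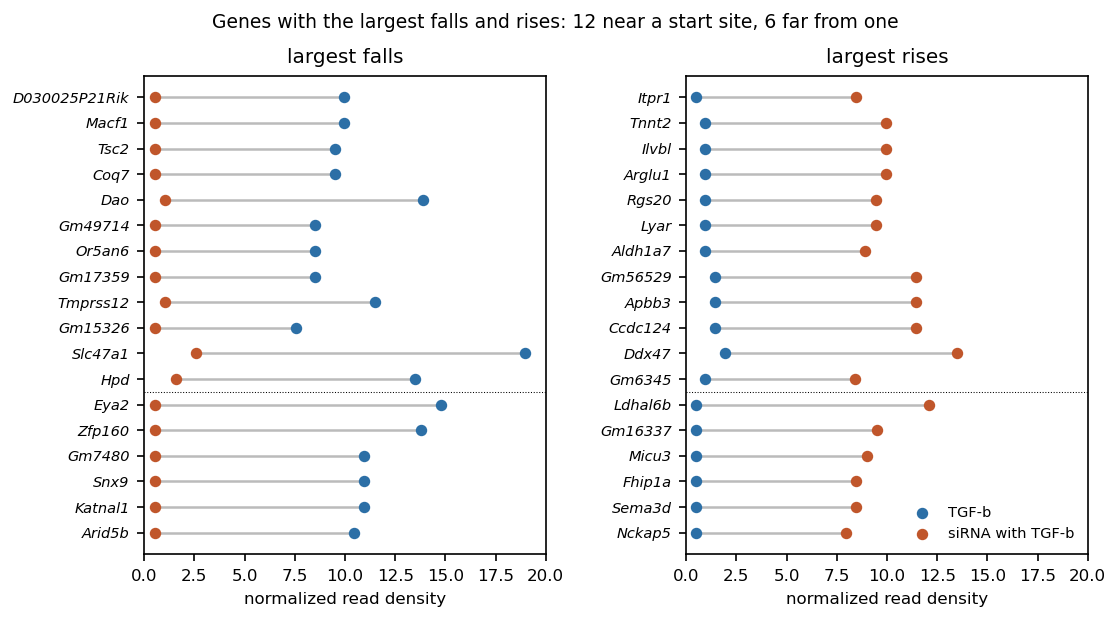
Normalized read density with TGF-b (blue) and with siRNA added (orange) at the 18 largest falls (left) and 18 largest rises (right), with 12 regions near a TSS above the dotted line in each panel and 6 far from one below it. Slc47a1 has the highest density among the falls, at 18.9 with TGF-b and 2.57 with siRNA, and Ddx47 among the rises, at 1.93 and 13.5.

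HOX genes, which specify position along the body axis, held 30 to 73 reads each in the TGF-b library. Of 11 kept HOX genes, 5 were lower and none was higher, against 20% and 13.1% of all kept genes, and the median log2 ratio was -0.93 beside -0.09 over all kept genes. Hoxb9 had the most reads, 73 with TGF-b and 18 with siRNA (-1.94, interval -2.73 to -1.26), in its intron at chr11:96163980-96164174. Hoxc9 went from 61 to 14 (-2.01, interval -2.91 to -1.26) at 529 bp before a TSS. Hoxd13 went from 43 to 13, Hoxc4 from 39 to 12 and Hoxb7 from 49 to 23. Hoxc11, Hoxa5 and Hoxa7 lay between -0.93 and -0.65 with intervals below 0, and Hoxd10, Hoxc5 and Hoxb8 between -0.58 and 0.08. The genes past 2-fold lie in the B, C and D clusters, and within the B cluster Hoxb8 held 30 reads with TGF-b and 31 with siRNA. The intervals of 8 of the 11 lay below 0.

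Of 10 kept genes for transcription factors of cardiac fibroblasts 4 were lower and none was higher, against 20% and 13.1% of all kept genes. Their median was -0.88, which became -0.61 with all kept regions and -0.10 with no density minimum. Gata5, a GATA factor of the developing heart, had 68 reads with TGF-b and 23 with siRNA at 515 bp before a TSS (-1.51, interval -2.22 to -0.87). Runx1, a factor of the myofibroblast state, was at -1.51, Wt1, a factor of the epicardium, at -1.44, and Foxp1 went from 16 reads to 0. Tbx20, an epicardial and cardiac T-box factor, was within 2-fold at -0.83 and Foxo3 at 0.40. Tbx20, Gata5, Nfatc3 and Foxo3 were the 4 of highest density.

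Mechanosensitive ion channels, which turn membrane stretch into ion flow, had a median of -1.27 over 7 kept genes, with 4 lower and none higher, against 20% and 13.1% of all kept genes. With all kept regions of each gene in place of 1, the list's median was -0.28, and with no density minimum it was -0.54. Trpv4, a calcium-permeable channel, had 26 reads with TGF-b and 3 with siRNA in exon 1 (-2.65, interval -4.65 to -1.38). Piezo1 went from 24 to 6 (-1.75, interval -3.16 to -0.66) in a region 2586 bp from a TSS that the authors annotated to a 3' UTR. Trpm4, a calcium-activated cation channel, went from 22 to 8 at its 5' UTR (-1.27, interval -2.52 to -0.24). Kcnk2 and Trpc6 were within 2-fold at -0.69 and -0.28, and Pkd1, polycystin 1, was at 0.40. Piezo2, the channel that the study's text gives as the siRNA target, had 9 regions, and they moved in both directions. The region 1149 bp before a TSS (chr18:63187190-63187336) went from 20 reads to 4 (-1.97, interval -3.70 to -0.74). A region of intron 3 went from 16 to 2 and one of intron 52 from 15 to 6. An intron 51 region went from 4 to 14 reads (1.70, interval 0.39 to 3.45) and one of intron 4 from 7 to 16 (1.18, interval 0.04 to 2.53). Another of intron 4 was within 2-fold at 8 and 14. The other 3 did not reach the density minimum, at 10 and 2, 9 and 5, and 14 and 12 reads. All 5 regions called in the TGF-b library were below 0, and of the 4 called in the siRNA library 3 were above it. These reads measure chromatin, not transcripts, so they are no check of a knockdown.

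**Figure D4:**
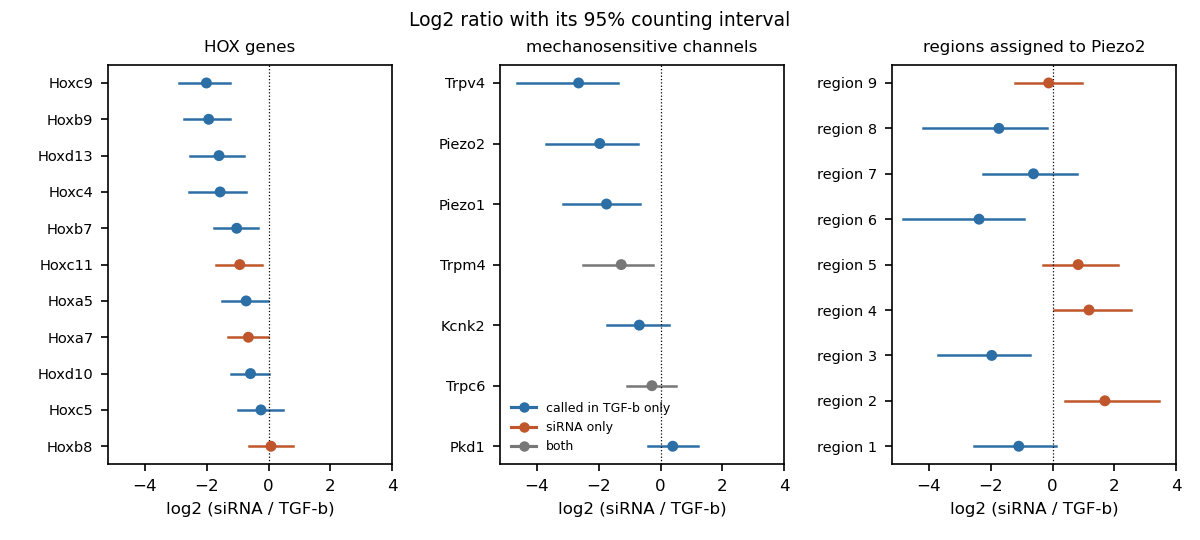
Log2 of the siRNA over the TGF-b density, with its 95% counting interval, for the kept HOX genes (left), the kept mechanosensitive channel genes (middle) and the 9 regions assigned to Piezo2 in genome order (right), coloured by the library in which the region was called. HOX values run from -2.01 at Hoxc9 to 0.08 at Hoxb8, and Piezo2 regions lie on both sides of 0.

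Genes of TGF-b and Wnt signalling are read against 20% lower and 13.1% higher over all kept genes. In the TGF-b pathway 3 of 13 kept genes were lower and none higher (median -0.59), and within 3 kb of a TSS 3 of 9 were lower against 13.8% of all genes there. Zeb1, a repressor of epithelial genes, had the deepest fall, from 16 reads to 1 in an intron (-2.95, interval -6.43 to -1.30), and the SMADs differed. Smad3, a mediator of the TGF-b response, went from 24 reads to 8 at its promoter (-1.40, interval -2.63 to -0.38), and Smad2 from 21 to 40 (0.93, interval 0.21 to 1.72). Ltbp3, which holds latent TGF-b, was at -1.21, and the receptor gene Tgfbr1 at -0.77. Ski, a repressor of SMAD activity, and Ltbp4 were within 2-fold at 0.56 and -0.08. Among Wnt and Frizzled genes 4 of 16 were lower and none was higher (median -0.70), and 6 intervals lay below 0. Wnt1 went from 43 to 21 reads (-0.97, interval -1.74 to -0.26) and Axin1, a scaffold of the beta-catenin destruction complex, from 43 to 23 (-0.84). Ctnnb1, beta-catenin, was lower at -1.10. The receptor genes Fzd5 and Fzd4 stood at 0.04 and 0.28. Of 8 metalloproteinase genes and their inhibitors 3 were lower and none was higher, with a median of -0.51 that became -1.17 with all kept regions and -0.01 with no density minimum. Timp2, an inhibitor, went from 16 reads to 1 at 8 bp from its TSS (-2.95, interval -6.43 to -1.30), the gelatinase gene Mmp2 from 15 to 2 and Mmp7 from 15 to 3. Mmp9, Mmp25, Mmp16 and Mmp21 lay within 2-fold, from -0.76 to 0.41.

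Genes commonly listed as SRF targets were split between both directions. Of 13 kept genes of the actin cytoskeleton 2 were lower and 2 were higher, with a median of -0.10 against -0.09 over all kept genes, which turned to 0.16 with all kept regions of each gene. Zyx, a focal adhesion protein, had 46 reads with TGF-b and 36 with siRNA (-0.33, interval -0.96 to 0.29). Vcl, vinculin, whose CArG box is shown above, had 29 and 20 at its promoter (-0.47, interval -1.30 to 0.32). A second kept region of Vcl, in its 3' UTR, had 6 and 14 reads. Myh9, non-muscle myosin heavy chain, had 28 and 37 and Pdlim5 28 and 31. Those past 2-fold were Tgfb1i1 (26 reads to 8) and Wdr1 (25 to 10) on the lower side, and Diaph1 (11 to 33) and Actg1 (4 to 15) on the higher side. Of 6 kept smooth muscle contractile genes 2 were higher and 1 was lower, against 13.1% and 20% of all kept genes. Acta2, the myofibroblast actin, had 7 reads with TGF-b and 17 with siRNA at 381 bp before a TSS (1.26, interval 0.14 to 2.60), and Cald1, caldesmon, 6 and 14 with an interval that held 0. Myocd, an SRF coactivator of muscle, went from 20 to 5 in an intron (-1.71, interval -3.27 to -0.54). Smtn, Synm and Mylk were within 2-fold at -0.08, 0.62 and -0.51. In the short list of SRF cofactors, Mrtfa was at 0.32 and Elk1 at 0.62. The one region assigned to Srf lay 23308 bp before a TSS and was annotated to an intron (8 of 19). It had 11 and 9 reads and was below the density minimum.

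Immediate early genes, the rapid response of cells to serum, had a median of 0.72 over 6 kept genes, of which 3 were higher and none was lower, against 13.1% and 20% of all kept genes. The median was 0.39 with all kept regions of each gene and 0.26 with no density minimum. Junb went from 5 reads to 20 (1.90, interval 0.73 to 3.46) and Mafk from 11 to 23 (1.07, interval 0.12 to 2.15). Nr4a3 went from 7 to 14, with an interval that held 0. Atf3 was at 0.44, Dusp6 at -0.51 and Fosl2 at -0.75. Of 5 kept YAP/TAZ targets 1 was lower and 1 was higher, Wwc1 at 5 and 14 reads (1.43, interval 0.18 to 3.01). Ankrd1, a cardiac stress protein, had 17 reads with TGF-b and 28 with siRNA at 65 bp before a TSS (0.74, interval -0.08 to 1.63). Crim1 and Amotl2 were at 0.29 and 0.16, and the ectonucleotidase gene Nt5e fell from 21 reads to 3 (-2.35). In the Hippo and TEAD list 3 of 12 were higher and 1 was lower, and Yap1 had 19 reads against 14. Vgll4, a TEAD cofactor, went from 5 to 24, while Stk3, Vgll3, Taok2 and Tead3, the 4 of highest density, lay within 2-fold. Wwtr1, which encodes TAZ, had 6 and 9 reads and was not kept. The 3 regions of Postn, periostin, had 4, 4 and 2 reads with TGF-b and 11, 13 and 12 with siRNA, and none reached the density minimum. Tagln, Col1a1, Ccn1, Ccn2 and Tet3 had no region in this comparison.

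Collagen, adhesion and growth factor genes had members on both sides, to be read against 20% lower and 13.1% higher over all kept genes. Of 17 kept collagen genes 2 were lower and 2 were higher (median -0.29, and 0.01 with no density minimum), and 14 were represented by a region beyond 3 kb of a TSS. Col5a1 went from 21 reads to 6 and Col11a2 from 29 to 9, while Col8a2 went from 4 to 16. Col26a1, Col23a1, Col13a1 and Col18a1, the 4 of highest density, ran from -0.93 to 0.71. Of 15 integrin and focal adhesion genes 2 were lower and 2 were higher (median 0.44). Lims1, a focal adhesion adaptor, had 71 and 69 reads at its promoter, and Itga6 fell from 22 to 1 in an intron (-3.40, interval -6.88 to -1.78). Itga2b, the platelet integrin subunit, was at -0.91. Matricellular genes had 2 of 11 higher and 1 lower, with P4hb, P4ha1, Vcan and P4ha2 between -0.39 and 0.30. Of 6 laminin and basement membrane genes 1 was lower, Lama3 at -1.78, and 1 was higher. Lamc1, a laminin chain, had 38 and 44 reads, Agrn 21 and 20, and Hspg2, perlecan, 30 and 14 (-0.99). In the PDGF, FGF and IGF list 5 of 17 were lower and 5 were higher, and the median turned from -0.55 to 0.10 with no density minimum. Igf2r fell from 18 reads to 3 and Igfbp5 from 26 to 9, and Fgf1 rose from 7 to 29 and Igf1r from 8 to 23. The growth factor genes Igf2, Fgf4, Pdgfb and Pdgfd, the densest of the list, were within 2-fold at -0.78, -0.53, 0.48 and 0.76. In the BMP and ID list 2 of 7 were higher and none was lower, and Bmp7, Acvr2b, Id4 and Chrd were within 2-fold.

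Genes of general cell maintenance, mostly measured at promoters, are given next, beside a median of 0.14 and shares of 8.25% lower and 12.9% higher in core promoters. Cytosolic ribosomal protein genes had 3 of 13 higher and none lower (median 0.18), and Rps19, Rps21, Rpl37 and Rpl13a lay between 0.12 and 0.50. Translation factors had 5 of 22 higher and 1 lower (median 0.31). Eif4enif1, a carrier of the cap-binding protein, had the most reads, 105 and 70 (-0.61), and Eef2kmt had 39 and 58. Eif3f went from 31 reads to 48 and Eif2ak3, a kinase of the stress response, from 31 to 49, each past its interval. Among cyclins and cell cycle genes 5 of 28 were higher and 2 were lower. Mcm9, a helicase of DNA repair, had 24 and 63 reads (1.37, interval 0.74 to 2.08), and Ccnb2, cyclin B2, 3 and 21. Cdk13, a kinase of RNA polymerase, had 29 and 52, and Cdkn2d and Cdc34 were at 0.24 and -0.50.

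In the following lists the count of lower genes comes first and that of higher genes after it, beside 20% and 13.1% of all kept genes. Most members of these lists were measured within 3 kb of a TSS, where the shares were 13.8% and 12.3%. Splicing factors had 4 of 44 lower and 3 higher, heat shock genes 4 of 34 and 3, histone modifiers 2 of 25 and 1, mitochondrial ribosomal proteins 2 of 18 and 3, the respiratory chain 1 of 22 and 3, and the proteasome 2 of 14 and 4. Among splicing genes Hnrnph3, U2af2, Rbm15 and Ddx54 ran from -0.13 to 0.74. Among heat shock genes Hsp90b1, a chaperone of the endoplasmic reticulum, had 31 and 49 reads, Ahsa2 29 and 54, and Chordc1 and Dnajc13 were at 0.16 and -0.20. Of the densest mitochondrial ribosomal protein genes, Mrps9 was higher at 18 and 37 reads (1.04) and Mrpl17, Mrps12 and Mrps28 lay within 2-fold. In the respiratory chain Ndufa8, Cox18, Atp5mc1 and Ndufb10 ran from -0.58 to 0.19. Psmd8, a lid subunit of the proteasome, was higher at 17 and 36 reads (1.08), and Psmc4, Psmd3 and Psmb9 ran from -0.24 to 0.40. The histone acetyltransferase genes Kat6b and Kat7 were at 0.14 and 0.13, and the demethylase genes Kdm3a and Kdm4b at -0.44 and -0.52. Crebbp, an acetyltransferase, went from 5 reads to 25 at its promoter. KLF and SP factors had 2 of 13 lower and 1 higher. Klf16 fell from 47 to 14 (-1.64, interval -2.55 to -0.86), while Sp4 had 94 and 95 reads and Sp1 48 and 49. Klf3 was at -0.69 and Klf11, a factor induced by TGF-b, at 0.87. Spi1, a factor of myeloid cells, was the 1 ETS gene of 9 past 2-fold, at -1.27, and Gabpa, Elf2, Etv5 and Ets2 ran from -0.40 to 0.53. Tsc2 apart, lysosome and mTOR genes were higher at Lamtor4 and Lamtor3, and Rheb, Mitf and Rptor were within 2-fold. Cytokine genes had 1 of 8 lower, Nfkb2, and 1 higher, Il33, with Relb, Stat3, Cxcl14 and Ccl25 between 0.35 and 0.72. Numbered zinc finger genes, the largest list, had 26 of 152 lower and 19 higher, near the shares of all kept genes, with a median of 0.06, and Zfp788 had 37 and 72 reads. Zfp78, Zfp869 and Zfp386 were at 0.30, 0.04 and 0.02.

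Chemosensory receptor genes were lower more often than all kept genes (20%), and long neuronal genes were near that share. Of 64 kept chemosensory receptor genes 29 were lower (45.3%) and 10 were higher (15.6%), beside 20% and 13.1% of all kept genes. The median was -0.90. Tas1r2, a sweet taste receptor, went from 50 reads to 20 (-1.25, interval -2.03 to -0.55), and the olfactory receptor genes Or1af1 and Or6b3 were at -1.14 and -1.09. Or10p1 was within 2-fold at 31 and 15 reads. With no density minimum the list's median was -0.45. Long neuronal genes had 13 of 52 lower and 8 higher (median -0.36), and 35 of the 52 were represented by a region beyond 3 kb of a TSS. With all kept regions of each gene their median was -0.78. Lrp1b went from 42 reads to 10 (-1.91, interval -2.99 to -1.04) and Nrg1 from 55 to 22 at 17 bp from a TSS (-1.26). Nrxn3 lay within 2-fold at 28 and 49 reads, as did Macrod2 at 52 and 42 and Cadm2 at 41 and 45, and Dcc went from 3 to 20. Dpp10, with 30 kept regions, had 13 lower and 2 higher, and Nrxn3, with 15, had 7 lower and 1 higher. Among genes measured within 3 kb of a TSS, 13.8% of 5498 were lower and 12.3% were higher with a median of 0.04. There the medians were -1.51 for mechanosensitive channels (6 kept), -0.83 for HOX genes (10 kept), -0.83 for chemosensory receptors (52), -0.65 for Wnt genes (10) and -0.77 for the TGF-b pathway (9). They were -0.83 for transcription factors of cardiac fibroblasts (7), 0.72 for immediate early genes (6) and 0.91 for smooth muscle contractile genes (4).

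**Figure D5:**
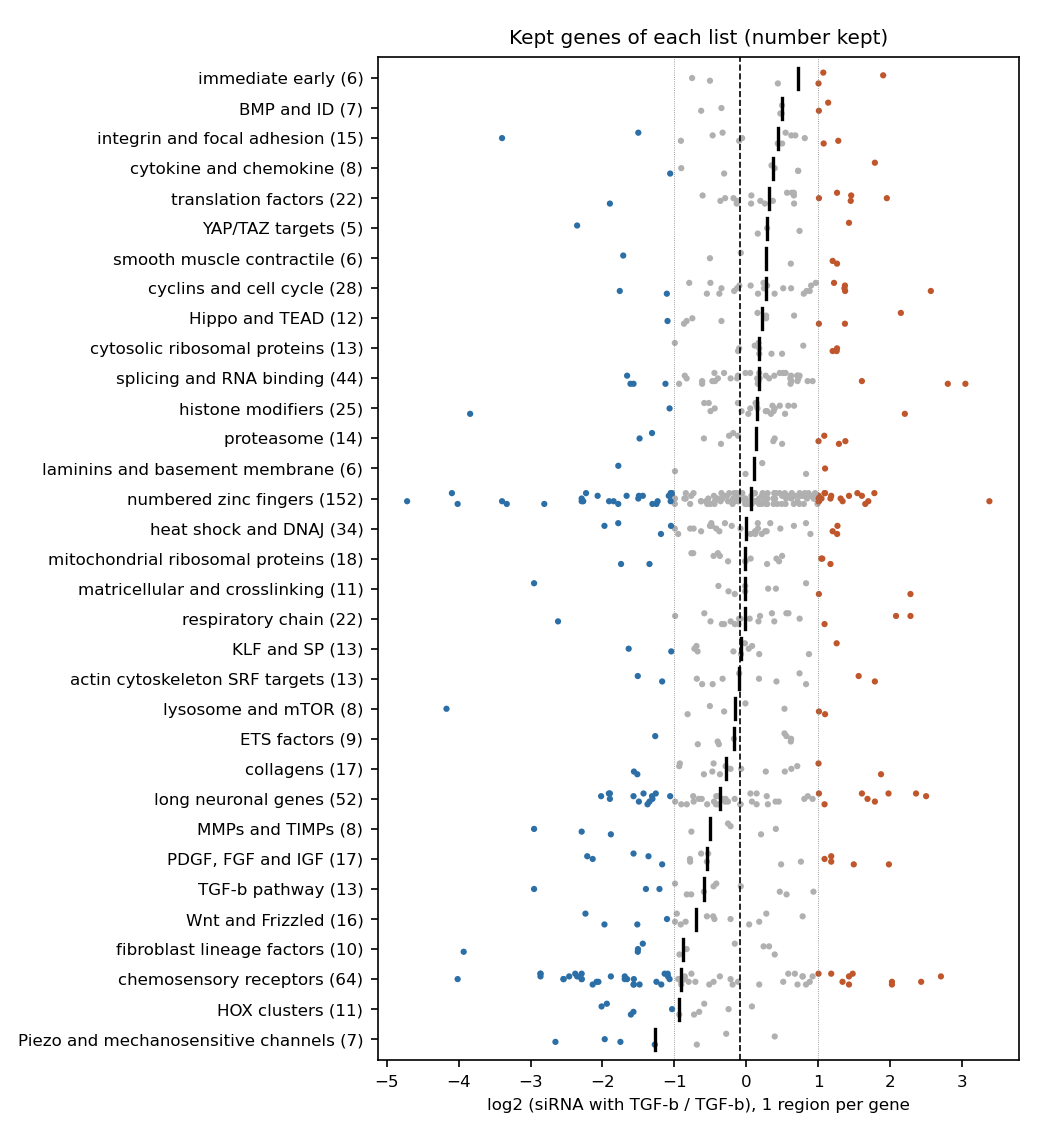
Log2 of the siRNA over the TGF-b density for every kept gene of each list with 5 or more kept genes, 1 region per gene, with values at least 2-fold lower in blue and higher in orange, list medians as black bars and the median of all kept genes, -0.09, as a dashed line. List medians run from -1.27 for the mechanosensitive channels to 0.72 for the immediate early genes.

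Markers of cell types gave little on the makeup of the cultures. Of 15 fibroblast markers 5 had a region, Ddr2, Dpt, Gsn, Pdgfra and Postn, and their summed density was 19.9 with TGF-b and 30.1 with siRNA. Only 2 of these 5 had a kept region, both within 2-fold, so the sum includes regions below the density minimum. The defining genes Col1a1, Col1a2, Col3a1, Dcn, Tcf21 and Vim had none. Cardiomyocyte markers had a region for 8 of 14, at a sum of 48.7 and 67.0, with Ryr2, Actc1, Myl3 and Ttn between -0.29 and 0.62. Endothelial markers had one for 8 of 10 (64.4 and 68.6), with Vwf, von Willebrand factor, lower at 26 and 7 reads and Cdh5, Tek and Erg within 2-fold, and macrophage markers one for 5 of 9 (31.9 and 21.3). Smooth muscle and pericyte markers had 5 of 7 (36.4 and 23.2), mesothelial markers 2 of 5 (19.9 and 7.74) and Schwann markers 2 of 4 (19.6 and 15.002). Tnnt2, one of the 12 rises near a TSS, was the 1 higher gene among 7 kept cardiomyocyte markers, of which 1 was lower. Wt1 (-1.44) is a mesothelial marker, and both kept markers of that list were lower. Over all kept genes 20% were lower and 13.1% were higher. A region near a marker gene does not show that the gene was expressed, and the part of other cell types in these results was not tested.

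Most of the densest regions had no gene and lay within 2-fold. Of 53 regions with a density of 100 or more, 43 had no gene, and the median of the 53 was -0.03. Among the 53, 8 were lower (15.1%) and 1 was higher (1.89%), beside 30.4% and 12.7% of all kept regions. The exceptions included 4 regions of Sfi1, where 750 reads with TGF-b stood against 388 with siRNA (-1.09, interval -1.27 to -0.92) in the strongest, and 3 regions with no gene on chromosome 17, with 1737 reads against 965 in the strongest (chr17:40154727-40157084). The other dense regions with a gene were within 2-fold, at 0.35 for 2700054A10Rik, 0.31 for Chl1, 0.25 for Gm33838, 0.07 for Smo, -0.51 for Actr3b and -0.67 for Gm12735.

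Other tables of the series allow the same places to be read beside this comparison. The T set, read as TAZ, compared its own siRNA and TGF-b libraries, and its 50784 kept regions had a median log2 ratio of 1.37, with -0.19 in core promoters and 1.83 in regions with no gene. Core promoters lay below regions with no gene there and above them here, a difference that was not tested. Of the 4732 kept regions that overlapped a kept T set region, 289 were lower in the S set, and 16.3% of these were lower and 27.7% higher in the T set, beside 23.2% and 14.0% of all 4732, where the T set median was -0.24. The 686 higher in the S set were lower in 23.3% and higher in 17.3% in the T set. Core promoters made up 28.7% of the 289 and 49.3% of the 4732. The S set comparison of TGF-b with NC shares its TGF-b library with this one, so the values are not independent. Its 17065 kept regions had a median of -0.42 (TGF-b over NC), with 0.46 in core promoters and -0.66 in regions with no gene.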

How the data were processed

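Per the study's methods, alignment by the authors used Bowtie2 on GRCm39, and the peak caller is written Masc2. The submitters' processing notes instead name BWA 0.7.12 and mm10. Chromosome ends and scaffold names in the tables follow GRCm39, and region coordinates are printed as the tables give them. The signal deposited by the authors is reads plus 1 in a 2 kb window, per kb, rescaled along a line. With the line undone, 99.98% of regions came out at whole reads (tolerance 0.1). The deposited tables also hold the authors' fold changes and p-values, which were not used.

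The log2 ratio was computed from both densities (Python 3.11.15, numpy, pandas and scipy) and the line added a median of 0.08 to it in kept regions. Windows of close regions overlap. Reads may hold PCR duplicates. The fold against 0 reads was taken with 3 reads as the floor per library. Intervals and the recovery of reads were tested on simulated data. Members and lists were chosen with earlier results of these data known. Named genes were the 12 largest falls and rises near a TSS and the 6 beyond 3 kb, up to 4 genes of highest density per list, the 10 densest regions with a gene, genes with 4 or more kept regions all past 2-fold, and 12 genes of fibroblast activation. Other list members named were chosen after their values were seen. Total depth of the libraries was not used here.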

Additional observations from a re-analysis of the deposited data

Results flagged for a closer look

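The siRNA comparisons of the S set and the T set had medians on opposite sides of 0, over different sets of regions and with 1 library a side, and the difference was not tested. At the 4732 shared kept regions the T set median was -0.24. The median of kept regions was -0.39 in the S set and 1.37 in the T set. Core promoters stood at 0.14 and -0.19, regions with no gene at -0.69 and 1.83, and introns at -0.58 and 1.57. Among the largest falls and rises and the densest regions, those whose counting intervals lay on opposite sides of 0 in the 2 sets were Gm15326 (-3.84 in the S set and 2.04 in the T set), Ddx47 (2.80 and -3.55), Chl1 (0.31 and -0.44), Sfi1 (-1.09 and 0.35 in one region, -1.03 and 1.06 in another) and Actr3b (-0.51 and 0.67). The S set value of Gm15326 and the T set value of Ddx47 are set against 0 reads and so depend on the 1 read that the authors added. With the floor of 3 reads, Gm15326 in the S set was at least 3.58-fold lower.

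The mitochondrial chromosome, left out of all counts, held 11 regions with 44839 to 261724 reads in the TGF-b library and a highest density of 156685. Their log2 ratios ran from -0.71 to 0.03, with a median of -0.49.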

How the results depend on the processing

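Counts and medians describe 1 library a side, and no paired analysis was possible because no result comes from a test. Lower regions, higher regions, lower genes and higher genes are given in this order. Centring on the median of kept regions gave 4012, 4071, 1043 and 1938 (median 0.0000). A density minimum of 5 gave 11502, 5514, 2397 and 1646 (median -0.31), a minimum of 15 gave 575, 208, 287 and 162 (median -0.19), and no minimum gave 14609, 7958, 2778 and 2035 (median -0.21). A threshold of 1.5-fold gave 8388, 4141, 2621 and 1982, and 4-fold gave 1709, 430, 418 and 164. Regions called in both libraries alone gave 81, 60, 43 and 50 and turned the median to 0.0135, with far fewer regions. Only regions within 3 kb of a TSS gave 756 lower and 678 higher genes. Undoing the authors' line moved the median to -0.44. Other causes were not tested. In all, 29 of 62 values stayed within 1.5 times the main count or within the rank interval of the median, among them those on autosomes, with equal numbers of regions called in 1 library and, chosen after seeing the data, without regions of density 100 or more. Raising low reads to 3 gave 5 of the 29 and could not have moved a call, since a kept region holds at least 14 reads in one library. Of 36 list medians, 36 kept their sign with the line undone, 34 with all kept regions of a gene and 27 with no density minimum. The sign turned for actin and ETS genes with all kept regions, and with no minimum for KLF and SP, PDGF, FGF and IGF, SRF cofactor, collagen, heat shock, laminin, matricellular, mitochondrial ribosomal and respiratory chain genes. With all kept regions, long neuronal genes moved to -0.78. At 14 reads an interval spans several fold.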
